A study of Mus musculus with 23 samples.

Results

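The subunits of the proteasome were examined in mouse liver after inhalation of particles. Members were all features whose listed gene symbol was Psma, Psmb, Psmc, Psmd or Psme followed by digits, which gave 44 features of 42 genes among the 22575 features on the array, most of which have a listed gene. For Psmc2 and Psme4, which had a pair of features each, the feature with the higher mean of log2 Cy5 plus log2 Cy3 was used. The data were whole livers of 23 female C57BL/6 mice with 1 oligonucleotide array per mouse: 8 mice had inhaled carbon black (CB, Printex) and 7 diesel exhaust particles (DEP, NIST 2975), both at 20 mg/m3, and 8 had inhaled filtered air, each for 90 min on 4 days. The labels name no genetic change and no further treatment in any group. According to the sample labels livers were taken 90 minutes after the last exposure from mice aged 12 to 13 weeks, while the methods of the study state a shorter time and a younger age. Liver RNA was labelled with Cy5 and a commercial universal mouse reference RNA with Cy3 on every array, with no exchange of the dyes. Values are log2 ratios of liver to reference after loess normalization within each array, so a ratio of a gene is its level in liver set against that of the same gene in the reference RNA, and ratios of different genes are not levels that can be ranked. A single limma model held the 3 groups, and its p-values carry the Benjamini-Hochberg adjustment over every feature with a listed gene, with a threshold of 0.05. Errors of fold changes are standard errors (SE).

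The proteasome degrades proteins that carry chains of ubiquitin. Its 20S core is a barrel in which rings of Psma subunits gate the entry and rings of Psmb subunits hold the active sites, and its 19S cap, of Psmc ATPases and Psmd subunits, binds, unfolds and deubiquitinates the substrate. The constitutive catalytic subunits are Psmb5, with chymotrypsin-like activity, Psmb6, with caspase-like activity, and Psmb7, with trypsin-like activity. Interferon-gamma induces Psmb8, Psmb9 and Psmb10, which take the places of Psmb5, Psmb6 and Psmb7 in newly made cores, called immunoproteasomes, that favour the cutting of peptides for presentation on MHC class I. Psme1 and Psme2 form the PA28 cap, which interferon-gamma also induces, while Psme3 and Psme4 encode other activators of the core (PA28 gamma and PA200). In liver, immunoproteasome subunits are found in resident macrophages and other immune cells and are induced in hepatocytes during inflammation. In whole tissue, fewer cells of a type and less RNA per cell cannot be told apart.

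Most members gave bright spots. Of the 42 members, 39 were above the median brightness of all features, and their median percentile was 90.5. Arrays had median Cy5 signals of 268 to 549 in the CB group, 312 to 511 in the DEP group and 262 to 541.5 in the filtered air group, and the deposited flag of an absent Cy5 spot was set for 20.5% to 39.96%, 19.2% to 37.4% and 13.8% to 41.9% of the features. There were 3 rounds of exposure. The first held 1 CB, 1 DEP and 2 filtered air mice, the second 6 CB, 2 DEP and 4 filtered air mice and the last 1 CB, 4 DEP and 2 filtered air mice. Precision is limited by the number of arrays. Psmb11, the thymic catalytic subunit, was flagged absent in Cy5 on 12 of the 23 arrays and Psmd11, a subunit of the 19S lid, on 14, and no other member on more than 5. Psmb1, a non-catalytic subunit of the inner ring, was at the maximum of the scanner in Cy5 on 12 arrays, and on 3 of these also in Cy3. Its ratio is only a bound where Cy5 alone was saturated and not measured where both were. Psmb4 was saturated in Cy5 on 2 arrays and Psma2 on 1. Hepatocyte markers were far above the reference in every group, with a mean log2 ratio over 9 measured genes of 3.93 to 4.95 in the CB group, 4.03 to 5.01 in the DEP group and 4.29 to 5.19 in the filtered air group, and the Cy5 spots of Alb, Trf, Fgb and Apoa2 were saturated on all 23 arrays. Psme2 was not analysed here.

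Spots that failed in both channels at once touched several members. A spot was called faint when both of its signals lay more than 2 log2 units below the median of that feature, after the median signal of each array was taken off, and 32 of the 966 member spots were faint, on 13 arrays and in 16 genes. Psma6, a subunit of the outer ring, had 5 of them: its Cy5 signal was 149 and 235.5 on 2 CB arrays, 151 on 1 DEP array and 156 and 190 on 2 filtered air arrays, all 5 flagged absent in Cy5. DEP mouse 55 had 7 such spots, the most on 1 array. The log2 ratios of these 5 Psma6 spots ran from -0.43 to 0.12 but rest on weak signals.

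**Figure D1:**
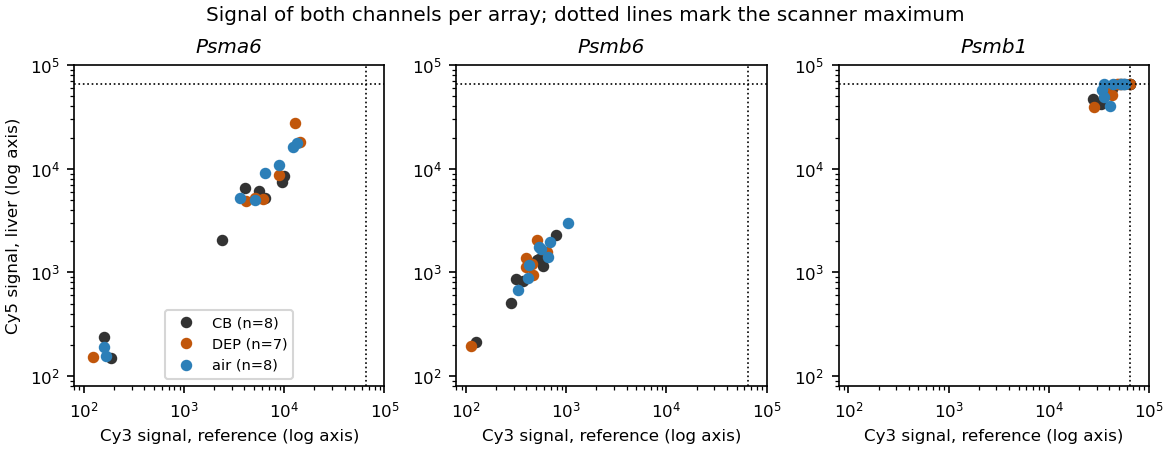
Cy5 signal of liver against Cy3 signal of the reference RNA (log axes, arbitrary scanner units) for Psma6, Psmb6 and Psmb1, with 1 point per mouse in the CB (n = 8), DEP (n = 7) and filtered air (n = 8) groups and dotted lines at the scanner maximum. A separate set of 5 Psma6 spots lies near the floor in both channels, and 12 Psmb1 spots lie at the maximum in Cy5.

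No proteasome subunit passed the threshold in any comparison. After CB limma called 0 of 42 members, beside 0% of all features, and the smallest adjusted p of a member was 0.680. After DEP it called 0 members, beside 0% of all features, with a smallest adjusted p of 0.997, and between CB and DEP 0 members, beside 0%, with a smallest adjusted p of 1.00. Without adjustment, p was under 0.05 for 2 members after CB (Psmc1 and Psmb5, both lower in the CB group, beside 5.94% of all features), 1 after DEP (Psma2, higher in the DEP group, beside 4.82%) and 2 in CB minus DEP (again Psmc1 and Psmb5, both lower in the CB group, beside 3.44%). These shares of the members are near those of all features. The 95% interval of the log2 fold change lay within 1.5-fold in either direction for 41 of 42 members in CB minus air (88.8% of all features), 41 in DEP minus air (87.8%) and 42 in CB minus DEP (88.7%). Psmb9 was the exception in both comparisons with filtered air. For Psmb1, Psmb11 and Psmd11, saturated or absent on 12, 12 and 14 arrays, a narrow interval does not bound the change in liver, and without them the counts were 38, 38 and 39 of 39.

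Fold changes were small in every part of the complex. The log2 fold change of the 42 members ran from -0.32 (Psmb9) to 0.26 (Psmb2) after CB, with a median of -0.05, and was below 0 for 30 members, beside 49.8% of all features. After DEP it ran from -0.22 (Psmb9) to 0.21 (Psma2) with a median of -0.02, and was below 0 for 24 members, beside 50.0% of all features. In CB minus DEP it ran from -0.25 (Psmc1) to 0.11 (Psmb1, saturated as above, with Psme3 next at 0.10) with a median of -0.03, below 0 for 26 members, beside 50.1%. The comparisons with filtered air share the same control mice. The sizes depend on the intensity correction: when each array was only centred on its median, without loess, all features had a median of -0.11 after CB and the members one of -0.34, and 1 member, Psmc1, passed.

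**Figure D2:**
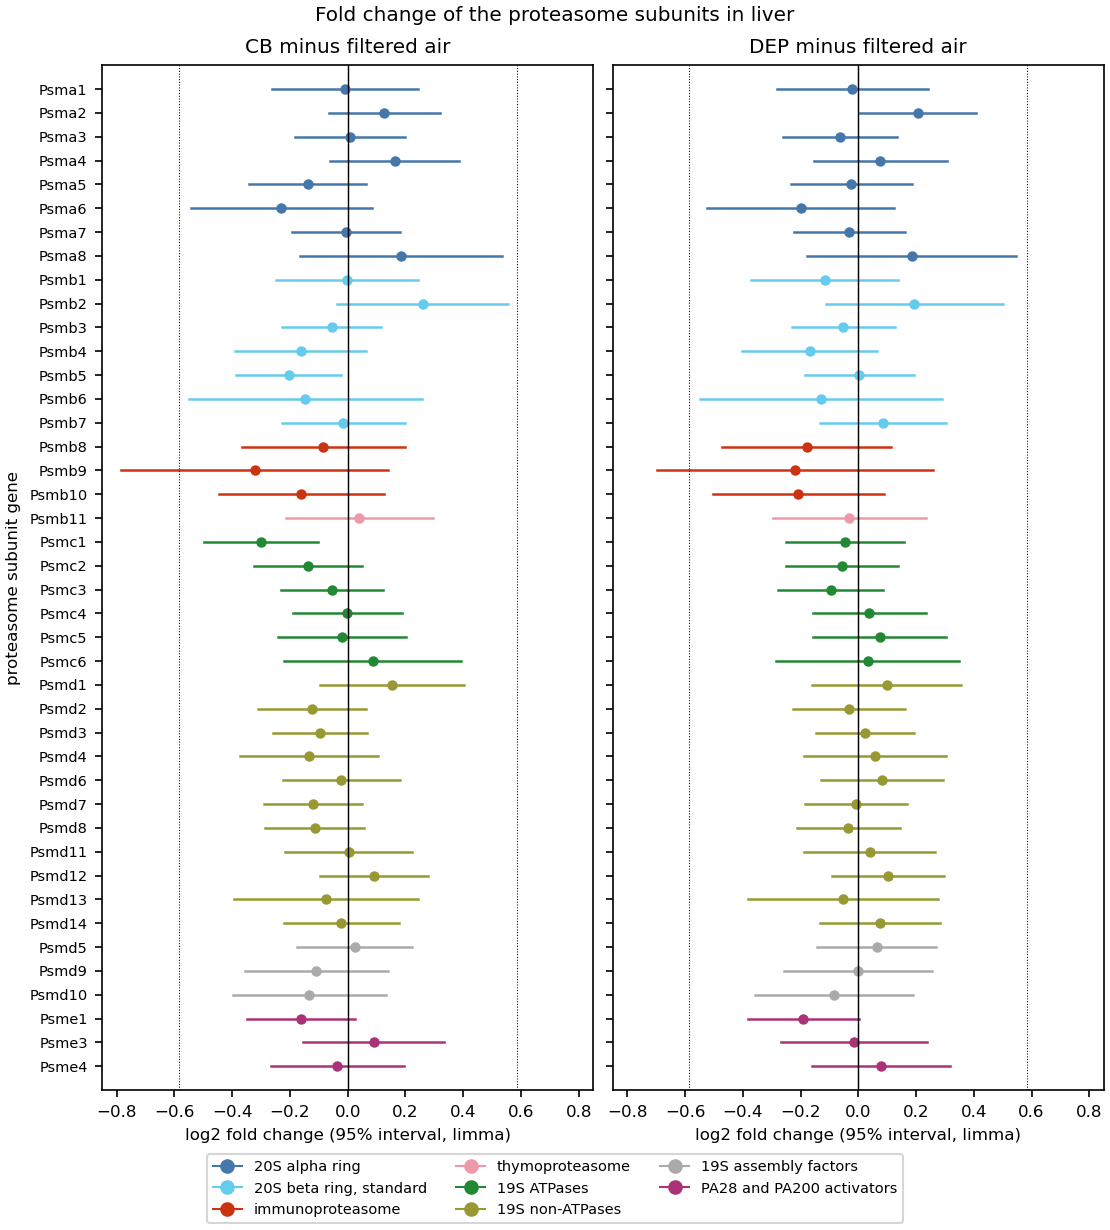
Log2 fold change of each of the 42 subunits in CB minus filtered air (left) and DEP minus filtered air (right), with the 95% interval of limma as a line, coloured by role, and dotted lines at a 1.5-fold change. All intervals but that of Psmb9 lie within the dotted lines.

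Among the constitutive catalytic subunits, Psmb5 (NM_011186) had log2 ratios of -0.11, 0.05 and 0.30 (lowest, median and highest) in the CB group, 0.12, 0.21 and 0.52 in the DEP group and -0.01, 0.25 and 0.60 in the filtered air group. The CB mice lay mostly below the others, with overlap. CB differed from air by -0.20 ± 0.09 on the log2 scale (± SE, adjusted p = 0.835 in limma), DEP from air by 0.00 ± 0.09 (adjusted p = 0.997) and CB from DEP by -0.21 ± 0.09 (adjusted p = 1.00). Psmb6 (BC020370) ran from 0.18 through a median of 1.22 to 1.66 in the CB group, from 0.26 through 1.19 to 1.68 in the DEP group and from 0.92 through 1.26 to 1.71 in the filtered air group. The lowest value of each particle group came from a spot flagged absent (CB mouse 835436 and DEP mouse 55), and both differences shrank without them. CB minus air was -0.15 ± 0.20 (± SE, adjusted p = 0.942 in limma), against -0.01 with absent spots left out, and DEP minus air was -0.13 ± 0.20 (adjusted p = 0.997), against 0.02. Psmb7 (NM_011187) averaged -0.38 ± 0.21 in the CB group, -0.28 ± 0.17 in the DEP group and -0.37 ± 0.21 in the filtered air group (SD, n = 8, 7 and 8), which left differences of -0.01 for CB (adjusted p = 0.993) and 0.08 for DEP (adjusted p = 0.997).

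The other subunits of the inner ring hold the barrel together. Psmb2 (NM_011970) had the most positive difference of all members after CB: its log2 ratio was 0.26, 0.77 and 0.97 in the CB group (lowest, median and highest), 0.28, 0.68 and 1.04 in the DEP group and -0.16, 0.51 and 0.78 in the filtered air group. The groups overlapped, and CB minus air was 0.26 ± 0.14 (± SE, adjusted p = 0.873 in limma). With median centring it was -0.09, so its direction depends on the intensity correction. Psmb4 (NM_008945) averaged 0.48 ± 0.20 in the CB group, 0.47 ± 0.25 in the DEP group and 0.64 ± 0.20 in the filtered air group (SD, n = 8, 7 and 8), and its DEP minus air of -0.17 ± 0.11 (± SE, adjusted p = 0.997) turned to 0.47 with the Cy5 signal alone and was -0.27 without saturated spots. Of the 7 standard subunits of the inner ring, 6 had a fold change below 0 after CB and 4 after DEP, beside 49.8% and 50.0% of all features. Among the 6, Psmb1, saturated as above, lay at -0.002. Psmb7 lay at -0.01 and turned to 0.017 without faint spots, and Psmb6 shrank without absent spots, as given above.

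The 8 subunits of the outer ring did not lean either way, with medians of 0.00 after CB and -0.02 after DEP. Psma2 (NM_008944) had log2 ratios of -0.47, -0.18 and -0.01 in the CB group, -0.35, -0.06 and 0.09 in the DEP group and -0.63, -0.33 and -0.04 in the filtered air group. The DEP mice tended to lie above the filtered air mice, with overlap. DEP minus air was 0.21 ± 0.10 (± SE, adjusted p = 0.997 in limma), the highest of any member in that comparison, and 1 of its Cy5 spots was saturated. The spot of its highest DEP mouse (55) was faint, and without faint spots DEP minus air was 0.20. Psma8, a form of the outer ring known from the testis, had the widest spread of the ring, with an SD within groups of 0.36.

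The 3 immunoproteasome subunits all had lower mean ratios after both particles, within the spread between mice, although with the Cy5 signal alone Psmb8 and Psmb10 had higher means. Psmb8 (NM_010724, also called LMP7) had log2 ratios of -0.04, 0.06 and 0.60 in the CB group, -0.47, 0.13 and 0.58 in the DEP group and 0.06, 0.22 and 0.58 in the filtered air group (lowest, median and highest). The 3 ranges overlapped, with the lowest mice in DEP. Compared with air, CB differed by -0.08 ± 0.14 (± SE, adjusted p = 0.956 in limma) and DEP by -0.18 ± 0.14 (adjusted p = 0.997). As each mouse was left out, CB minus air ran from -0.14 (without CB mouse 446) to -0.04 (without filtered air mouse 50), and DEP minus air was -0.08 without DEP mouse 835434. Psmb9 (NM_013585, also called LMP2) had -0.65, -0.04 and 0.26 in the CB group, -1.11, 0.01 and 0.99 in the DEP group and 0.11, 0.15 and 0.49 in the filtered air group. All 8 filtered air mice lay close together, 6 of the 8 CB mice lay below the lowest of them, and the DEP mice reached both far below and far above them. CB minus air was -0.32 with a 95% interval of -0.78 to 0.14 (adjusted p = 0.888 in limma), and DEP minus air was -0.22 with a 95% interval of -0.70 to 0.26 (adjusted p = 0.997). Single DEP mice moved the second value: it was -0.39 without mouse 57, -0.33 without 444, -0.14 without 56, -0.10 without 55 and -0.04 without 835434. Psmb10 (NM_013640, also called MECL1) had 0.06, 0.47 and 0.63 in the CB group, -0.12, 0.27 and 1.02 in the DEP group and 0.43, 0.53 and 0.89 in the filtered air group. The filtered air mice again took a narrow range inside that of the DEP mice. CB stood at -0.16 ± 0.14 against air (± SE, adjusted p = 0.914 in limma) and DEP at -0.21 ± 0.14 (adjusted p = 0.997). DEP minus air was -0.32 without DEP mouse 57, -0.13 without 56 and -0.13 without 835434. The highest filtered air value (mouse 443) came from a faint spot, and without it CB minus air was -0.12 and DEP minus air -0.16. In a fit blocked by exposure round the values of Psmb8, Psmb9 and Psmb10 were -0.12, -0.36 and -0.16 after CB and -0.14, -0.30 and -0.22 after DEP. The direction of Psmb8 and Psmb10 turned with the Cy5 signal alone, to 0.36 and 0.20 after CB and 0.04 and 0.26 after DEP, and that of Psmb9 did not (-0.31 and -0.24).

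**Figure D3:**
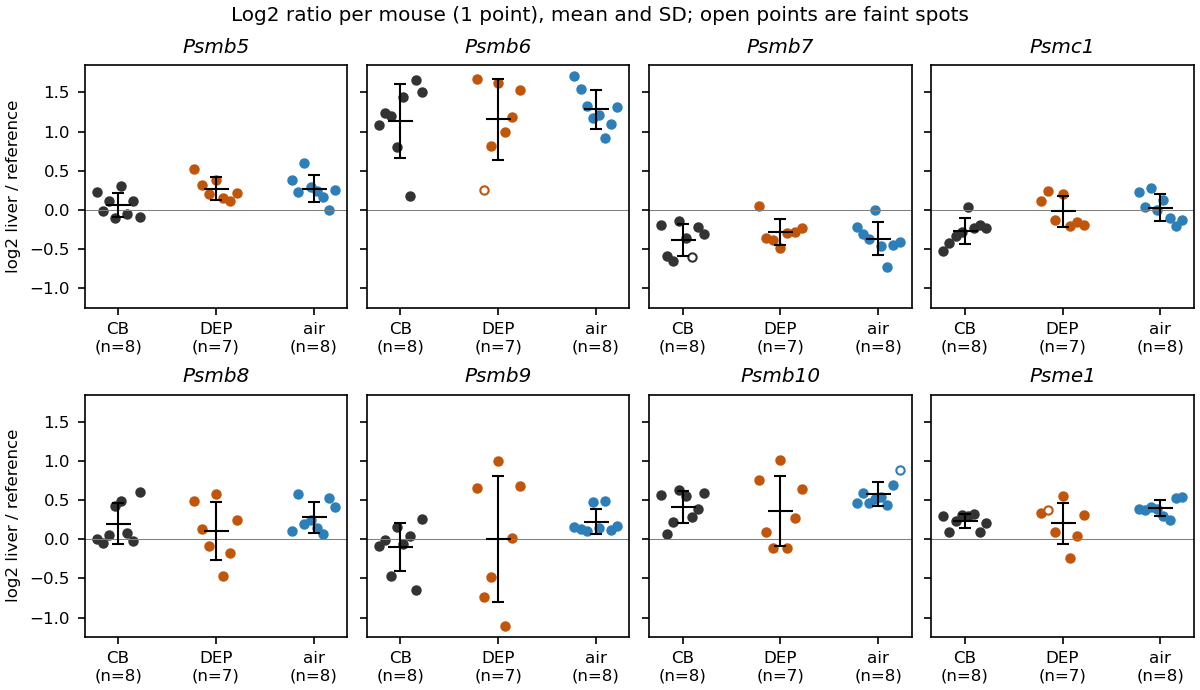
Log2 ratio of liver to reference in each mouse for 8 subunits in the CB (n = 8), DEP (n = 7) and filtered air (n = 8) groups, with mean and SD as bars and faint spots as open points. The DEP mice spread from -1.11 to 0.99 in Psmb9, while the filtered air mice lie between 0.11 and 0.49.

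Psme1 (NM_011189), the alpha subunit of PA28, had log2 ratios of 0.09, 0.27 and 0.32 in the CB group, -0.24, 0.31 and 0.55 in the DEP group and 0.24, 0.38 and 0.54 in the filtered air group. The means were below that of filtered air in both particle groups, with overlapping values. Against air, CB differed by -0.16 ± 0.09 (± SE, adjusted p = 0.873 in limma) and DEP by -0.19 ± 0.09 (adjusted p = 0.997), which placed it among the 4 members with the smallest p in both comparisons. CB minus air changed sign in the last round, which holds 1 CB mouse (0.05), and in the Cy5 channel taken alone (0.06). Without DEP mouse 835434, DEP minus air was -0.12. The other activators showed no shared direction, at 0.09 for CB and -0.01 for DEP in Psme3 and at -0.04 and 0.08 in Psme4.

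Promoters are shown for the 3 immunoproteasome subunits and Psme1, which interferon-gamma induces together. RefSeq promoter sequences (build GRCm38.p6) were found for 35 of the 42 members, and the 150 bases around the start of Psmb8, Psmb9, Psmb10 and Psme1 (120 before and 30 after) are shown 5′ to 3′ on the strand of the gene, with capitals marking every match, on either strand, to the core of an interferon-stimulated response element (GAAA, any 2 bases and GAAA), TGACNNNGC (the core of an antioxidant response element, also bound by Nfe2l1, the transcription factor that raises proteasome genes in mammals) or CCAAT. They lie at chr17:34198075-34198224 on the plus strand, chr17:34187301-34187450 on the minus strand, chr8:105938363-105938512 on the minus strand and chr14:55578374-55578523 on the plus strand.
Psmb8: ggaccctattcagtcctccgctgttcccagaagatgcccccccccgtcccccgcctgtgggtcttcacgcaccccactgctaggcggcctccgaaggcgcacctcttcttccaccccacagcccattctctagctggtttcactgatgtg
Psmb9: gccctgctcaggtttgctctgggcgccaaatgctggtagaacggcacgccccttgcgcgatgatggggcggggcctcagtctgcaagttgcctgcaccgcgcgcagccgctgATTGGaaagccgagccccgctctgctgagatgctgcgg
Psmb10: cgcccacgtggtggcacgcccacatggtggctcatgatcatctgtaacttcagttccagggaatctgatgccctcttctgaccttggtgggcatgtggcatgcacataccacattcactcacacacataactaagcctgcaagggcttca
Psme1: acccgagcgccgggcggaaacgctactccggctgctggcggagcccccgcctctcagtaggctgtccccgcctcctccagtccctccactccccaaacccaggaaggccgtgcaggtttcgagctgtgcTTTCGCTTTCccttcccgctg
In the window searched, 250 bases before to 50 after the start, Psme1 held the interferon-stimulated core, as did Psmb3, Psmd4 and Psmd9 (4 of the 35 members) and 3.49% of the 27025 promoters. Psmb9 held CCAAT in reverse, and 37.9% of all promoters held CCAAT on either strand. Psmb8 and Psmb10 held no match. TGACNNNGC was in 6 of the 35 member promoters, those of Psmb5 and Psmb6 among them, and in 12.5% of all. These are matches of letters and not measured sites. In the RefSeq annotation Psmb9 lies next to Tap1, and Psmb8 lies between Tap1 and Tap2, the genes of the peptide transporter of antigen presentation, on chromosome 17.

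In the 19S cap, Psmc1 (NM_008947), an ATPase of the base, had the smallest p of all members in 2 comparisons. Its log2 ratio was -0.53, -0.26 and 0.04 in the CB group, -0.21, -0.13 and 0.24 in the DEP group and -0.21, 0.01 and 0.28 in the filtered air group. Of the 8 CB mice, 6 lay below the lowest mouse of both other groups, and CB mouse 59 lay among the higher mice. CB minus air was -0.30 with a 95% interval of -0.50 to -0.10 (adjusted p = 0.680 in limma), DEP minus air -0.05 ± 0.10 (± SE, adjusted p = 0.997) and CB minus DEP -0.25 with an interval of -0.46 to -0.05 (adjusted p = 1.00). CB minus air was -0.27 in a fit blocked by round and -0.30 among mice of the second round. It was -0.24 among those of the last round, which holds 1 CB mouse. As each mouse was left out, CB minus air ran from -0.34 to -0.26. With median centring it was -0.64 (adjusted p = 0.0358 in limma, and the median of all features was then -0.11). The other 5 ATPases lay between -0.14 and 0.09 for CB minus air, and Psmc1 was not called by limma under any other alternative.

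The non-ATPase subunits of the cap, among them the ubiquitin receptors Psmd2 and Psmd4 and the deubiquitinase Psmd14, had a median log2 fold change of -0.08 after CB and 0.04 after DEP. In CB minus DEP 10 of 11 were below 0, beside 50.1% of all features. Psmd11, absent in Cy5 on 14 arrays, was among these at -0.04. None of the 11 reached an unadjusted p under 0.05 in any comparison. Psmd4 (NM_008951) averaged 0.20 ± 0.25 in the CB group and 0.40 ± 0.26 in the DEP group (SD, n = 8 and 7), a difference of -0.19 ± 0.12 (± SE, adjusted p = 1.00 in limma). Psmd3 (NM_009439), a structural subunit of the lid, averaged -0.18 ± 0.08 in the CB group and -0.06 ± 0.20 in the DEP group (SD, n = 8 and 7), a difference of -0.12 ± 0.08 (± SE, adjusted p = 1.00). Both differences turned within the last exposure round, which holds 1 CB mouse (0.24 and 0.02). That of Psmd4 was -0.13 without CB mouse 58, and that of Psmd3 was -0.18 without DEP mouse 835435. The 3 chaperones that assemble the base, Psmd5, Psmd9 and Psmd10, lay between -0.13 and 0.02 in CB minus air and between -0.08 and 0.06 in DEP minus air.

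Whether livers shifted between the standard and the immunoproteasome was described by the mean log2 ratio of Psmb8, Psmb9 and Psmb10 minus that of Psmb5, Psmb6 and Psmb7 in each mouse. This difference was -0.10 ± 0.30 in the CB group, -0.23 ± 0.38 in the DEP group and -0.04 ± 0.22 in the filtered air group (SD, n = 8, 7 and 8). The groups overlapped, with ranges of -0.61 to 0.29 in the CB group, -0.85 to 0.35 in the DEP group and -0.39 to 0.23 in the filtered air group. The highest CB value (mouse 835436) rests on an absent Psmb6 spot and a faint Psmb7 spot. Without faint spots the highest CB value was 0.22, and the CB, DEP and filtered air means were -0.13, -0.21 and -0.06. With all spots, CB minus air was -0.07 and DEP minus air -0.19, differences that were not tested. The SD between single mice within groups was 0.29. As each mouse was left out, CB minus air ran from -0.12 (without CB mouse 835436) to 0.01 (without CB mouse 445), and DEP minus air from -0.29 (without DEP mouse 57) to -0.09 (without DEP mouse 835434). With the Cy5 signal alone both turned, to 0.46 and 0.23. Its sign within a group carries no meaning, since each ratio is set against the reference RNA.

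Among the subunits, Psmb9 varied the most between mice. Within groups the SD of the log2 ratio was 0.49 for Psmb9, the largest of the 42 members and at the 92.8th percentile of all features. It was 0.29 for Psmb10 and 0.28 for Psmb8, which ranked 8 and 9 of the members (68.6th and 66.7th percentile of all features), whereas the median was 0.21 over the members and 0.24 over all features. The next largest after Psmb9 were those of Psmb6, 0.42, which includes the absent spots named above, and Psma8, 0.36. The smallest was that of Psmd3, 0.13. In Psmb9 the SD was 0.31 in the CB group, 0.81 in the DEP group and 0.16 in the filtered air group, and the ratio of the SD in DEP to that in filtered air, 5.03, lay at the 99.6th percentile of all features. For Psmb10 this ratio was 2.94, for Psma7 2.73, for Psme1 2.58, for Psmb6 2.06, for Psmd3 1.96, for Psmb8 1.90 and for Psmb3 1.87, while over all members 23 of 42 had a larger SD in DEP than in filtered air, beside 54.8% of all features. These percentiles describe the mice measured, and the difference in spread was not tested.

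**Figure D4:**
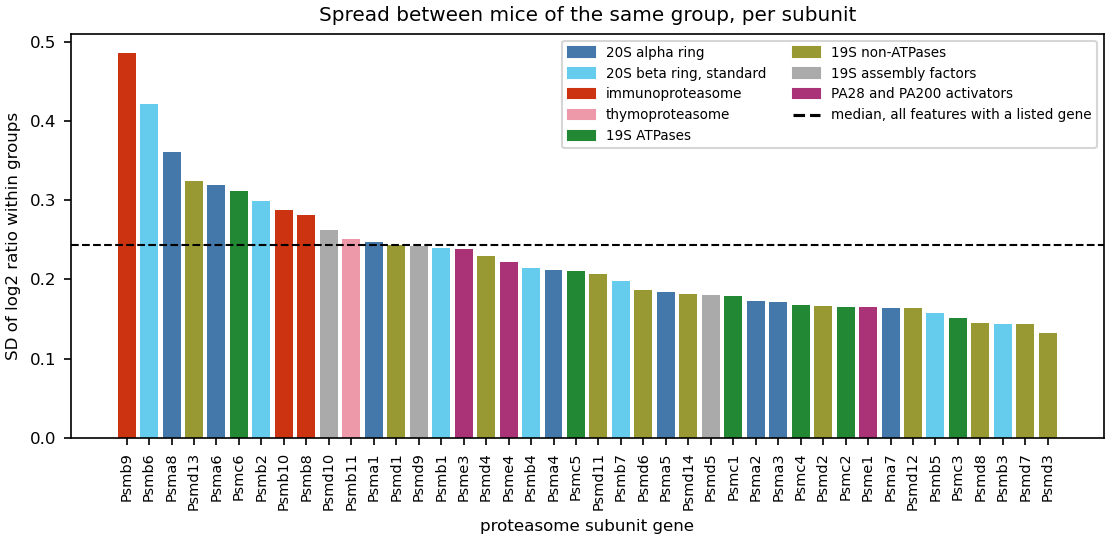
SD of the log2 ratio between mice of the same group, pooled over the CB, DEP and filtered air groups, for each of the 42 subunits in falling order, coloured by role, with a dashed line at the median of all features (0.24). Psmb9 has the tallest bar (0.49), and Psmb10 and Psmb8 also lie above the line.

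The DEP mice lay at both ends of the immunoproteasome values. The mean of the 3 immunoproteasome subunits was 0.86 in DEP mouse 57, 0.64 in DEP mouse 51 and 0.52 in DEP mouse 444, all above the highest filtered air mouse (0.49), and -0.56 in DEP mouse 835434, -0.23 in DEP mouse 56, -0.18 in DEP mouse 55 and 0.04 in DEP mouse 835435, all below the lowest (0.24). In this mean of loess ratios, and in Psmb9 alone, no DEP mouse lay within the range of the filtered air mice. In Psmb8 alone DEP mice 51, 55 and 444 lay within it, and in Psmb10 alone DEP mice 51 and 444. Of the 8 CB mice, 5 lay below the filtered air range of the mean and 3 within it. Mice 51, 57, 835434 and 835435 came from the last round, 444 and 56 from the second and 55 from the first. The arrays of mice 51 and 57 had the most saturated Cy5 spots of all 23 (422 and 297), and the array of mouse 835434 had 123. No spot of Psmb8, Psmb9 or Psmb10 was saturated on any array. Over all mice the log2 median Cy5 signal, taken as the brightness of the array, correlated with Psmb8 at r = 0.20 (Spearman's rho = 0.25), with Psmb9 at 0.09 (rho = 0.10), with Psmb10 at 0.16 (rho = 0.22) and with Psme1 at 0.05 (rho = 0.07), with adjusted p-values of 0.482 to 0.817 by permutation tests (n = 23 mice, group means removed). The median signal is not a count of saturated spots, and the part of saturation was not tested.

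Across mice the 4 genes whose promoters are shown above, Psmb8, Psmb9, Psmb10 and Psme1, varied together. With the group mean removed, 12 pairs of subunits and the 4 relations with array brightness were examined over the 23 mice (16 in all, two-sided permutation tests with 100000 resamples, Benjamini-Hochberg adjustment over the 16). The 6 pairs among Psmb8, Psmb9, Psmb10 and Psme1 had Pearson's r of 0.59 to 0.80, and all 6 passed. Psmb8 with Psmb10 had r = 0.80 (rho = 0.72, p = 1e-05, the smallest the test can give, adjusted p = 8e-05), Psmb9 with Psmb10 r = 0.77 (rho = 0.61, p = 1e-05, adjusted p = 8e-05) and Psmb8 with Psmb9 r = 0.65 (rho = 0.45, p = 0.000670, adjusted p = 0.00214). The adjusted p of rho was 0.00184, 0.0134 and 0.0771. Psme1 had r = 0.77 with Psmb8 (rho = 0.72, p = 2e-05, adjusted p = 0.000107), 0.73 with Psmb10 (rho = 0.58, p = 0.000110, adjusted p = 0.000440) and 0.59 with Psmb9 (rho = 0.29, p = 0.00347, adjusted p = 0.00925), the last of which did not pass by rank (adjusted p of rho = 0.323).

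Mice 57 and 835434 of the DEP group were the farthest from the median in each of these 4 genes and carried part of the relations. Without both, r was 0.70 for Psmb8 with Psmb10, 0.62 for Psmb9 with Psmb10, 0.61 for Psmb8 with Psme1 and 0.54 for Psmb10 with Psme1, with adjusted p-values of 0.00464 to 0.0462 by permutation tests (n = 21). The relations of Psmb9 with Psmb8 (r = 0.42, adjusted p = 0.189 by a permutation test, n = 21) and with Psme1 (r = 0.15, adjusted p = 0.618 by a permutation test, n = 21) did not pass without these mice. Within the second round r was 0.46 for Psmb8 with Psmb9, 0.71 for Psmb8 with Psmb10, 0.72 for Psmb9 with Psmb10, 0.49 for Psmb8 with Psme1, 0.40 for Psmb9 with Psme1 and 0.85 for Psmb10 with Psme1 (n = 12). Within the last round r was 0.94 to 1.00 in the 6 pairs (n = 6, without the single CB mouse), and these 6 mice include both DEP mice 57 and 835434. The first round had too few mice. With the round removed from all 23 mice r was 0.72 to 0.83. Without mice that had a faint spot in either gene, r was 0.76 for Psmb9 with Psme1 and 0.83 for Psmb10 with Psme1 (n = 22 and 21), and 0.65 to 0.81 in the other 4 pairs. The deposited ratios gave 0.45 for Psmb8 with Psmb9, 0.64 for Psmb8 with Psmb10, 0.69 for Psmb9 with Psmb10, 0.68 for Psmb8 with Psme1, 0.21 for Psmb9 with Psme1 and 0.43 for Psmb10 with Psme1, and 3 of the 12 pairs passed.

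The ratios of the standard catalytic subunits had lower correlations, none of which passed. Psmb5 with Psmb6 had r = 0.37 (rho = 0.50, adjusted p = 0.159 by a permutation test), Psmb5 with Psmb7 0.27 (rho = 0.22, adjusted p = 0.315 by a permutation test) and Psmb6 with Psmb7 0.36 (rho = 0.37, adjusted p = 0.159 by a permutation test). Each immunoproteasome subunit against the subunit it replaces gave r = 0.13 for Psmb5 with Psmb8 (rho = 0.18, adjusted p = 0.634 by a permutation test), 0.37 for Psmb6 with Psmb9 (rho = 0.25, adjusted p = 0.159 by a permutation test) and 0.29 for Psmb7 with Psmb10 (rho = 0.48, adjusted p = 0.280 by a permutation test). Without the pair of mice farthest from the median of the first gene these 6 values were 0.34, 0.17, 0.27, 0.06, 0.36 and 0.33 (n = 21). The difference between these relations and those of the immunoproteasome subunits was not tested.

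**Figure D5:**
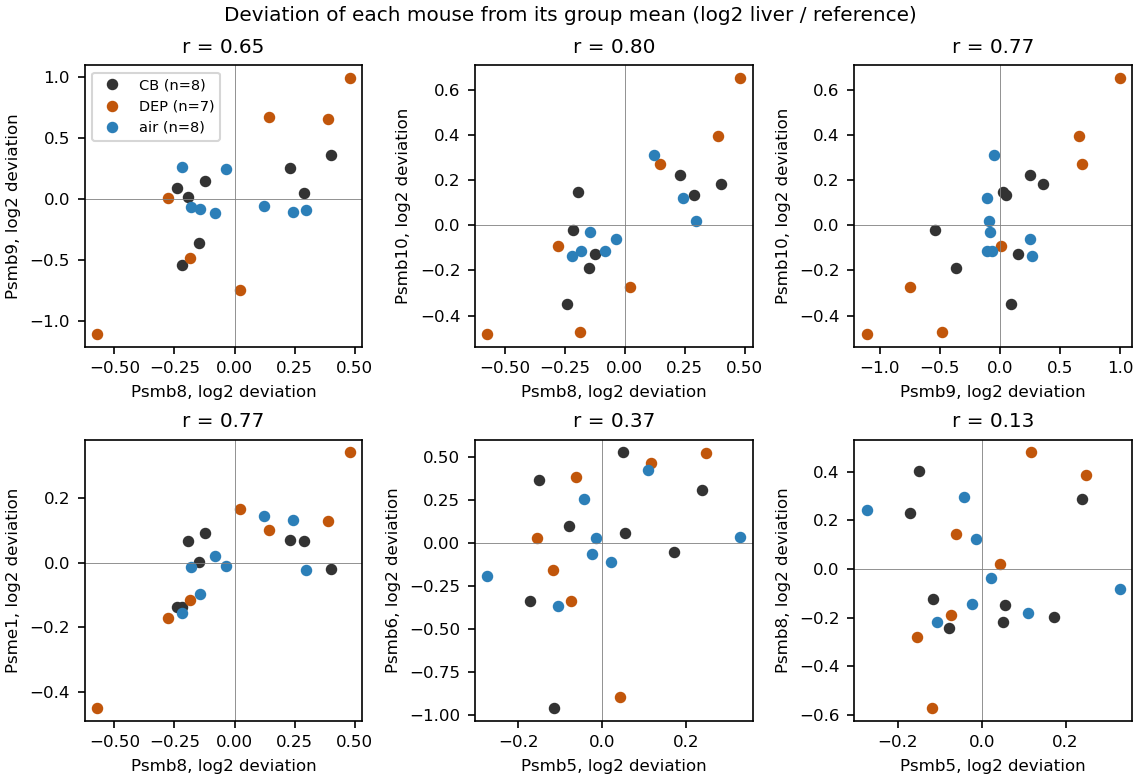
Deviation of each mouse from its group mean in log2 ratio for 6 pairs of subunits, with 1 point per mouse in the CB (n = 8), DEP (n = 7) and filtered air (n = 8) groups and Pearson's r over all 23 above each panel. The 4 pairs plotted among Psmb8, Psmb9, Psmb10 and Psme1 have r of 0.65 to 0.80, and DEP mice lie at both ends, while Psmb5 gives 0.37 with Psmb6 and 0.13 with Psmb8.

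The relations are between ratios, and the channels alone behaved otherwise. The Cy5 and Cy3 signals of a spot moved together from array to array, with r = 0.84 for Psmb8, 0.89 for Psmb10 and 0.98 for Psme1 (n = 23, quantile normalized, group means removed), although the reference RNA was the same on all arrays. Psmb9 differed, with r = 0.41 and an SD of 0.55 in Cy5 beside 0.26 in Cy3, and its ratio followed its Cy5 signal (r = 0.86) and not its Cy3 signal (r = -0.11). For Psmb8 and Psmb10 the ratio had r = 0.09 and 0.02 with the Cy5 signal and r = -0.45 and -0.42 with the Cy3 signal. In Cy5 alone r was 0.21 for Psmb8 with Psmb9, -0.04 for Psmb8 with Psmb10, 0.35 for Psmb9 with Psmb10 and 0.61 for Psmb8 with Psme1, and the last pair had r = 0.56 in Cy3, where no liver RNA was measured. Psmb6 with Psmb7 also had r = 0.61 in Cy5 alone.

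The genes outside the proteasome whose log2 ratio was most like that of Psmb8 over the 23 mice (group means removed) were Ifit3, an interferon-induced protein (r = 0.85), Fdps, farnesyl diphosphate synthase of the cholesterol pathway (r = 0.85), Ifitm7, of the interferon-induced transmembrane family (r = 0.85), Sri, the calcium-binding protein sorcin (r = 0.83), and Glrx5, a mitochondrial glutaredoxin (r = 0.81). Those most like Psmb9 were Dhcr7, the last enzyme of cholesterol synthesis (r = 0.89), Gbp3, an interferon-induced guanylate-binding protein (r = 0.89), Gsdmd, the pore-forming gasdermin D (r = 0.89), Acacb, an acetyl-CoA carboxylase (r = 0.88), and Acly, ATP citrate lyase (r = 0.88). In the deposited ratios the same genes gave 0.54 to 0.70 with Psmb8 and 0.84 to 0.85 with Psmb9. They were ranked over all genes with 1 feature each, and their r is a description, without a test.

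Of 25 measured interferon-induced genes, 6 had r over 0.5 with Psmb8, 7 with Psmb9 and 8 with Psmb10 (24.0%, 28.0% and 32.0%), beside 5.76%, 6.08% and 7.83% of all genes. Gbp2, Gbp3, Gbp4 and Ifit3 were among them for all 3 subunits. Irf1, a transcription factor of this response, had r = 0.13, -0.02 and 0.11 with Psmb8, Psmb9 and Psmb10. Of the 25, limma called 0 in any comparison, while 2 had an unadjusted p under 0.05 after CB, 1 after DEP and 1 in CB minus DEP. Among 11 genes of MHC class I processing 2 had r over 0.5 with Psmb8, Tapbp (0.73) and Tap2 (0.61), 0 with Psmb9 and 2 with Psmb10. Tap1, the neighbour of both Psmb8 and Psmb9, had r = -0.08 with Psmb8 and 0.04 with Psmb9, but was flagged absent in Cy5 on 6 arrays. H2-K1 and H2-T23, also among the 11, were saturated in Cy5 on 21 and 13 arrays. Of 9 partners of the proteasome outside the families, Psmg2, an assembly chaperone, had r = 0.55, 0.65 and 0.64 with Psmb8, Psmb9 and Psmb10. Uchl5, a deubiquitinase of the cap, had -0.42, -0.75 and -0.59. Limma called 0 of the 11 and 0 of the 9 in any comparison. Unadjusted, 0, 1 and 1 of the 11 had p under 0.05 in CB minus air, DEP minus air and CB minus DEP, as had 1, 0 and 0 of the 9.

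Macrophage and endothelial or stellate markers had higher correlations with the immunoproteasome subunits than lymphocyte, neutrophil or hepatocyte markers. This difference was not tested. Absent spots limit the neutrophil and lymphocyte values, and saturated spots the hepatocyte values. The mean of 8 measured Kupffer cell and macrophage markers (of 13 listed symbols, which include older names of measured genes) had r = 0.62, 0.54 and 0.68 with Psmb8, Psmb9 and Psmb10, that of 9 endothelial and stellate markers 0.58, 0.47 and 0.64, that of 12 lymphocyte markers 0.14, 0.19 and 0.34, that of 7 neutrophil markers -0.08, -0.18 and -0.02 and that of 9 hepatocyte markers 0.18, -0.12 and 0.14 (n = 23 mice, group means removed). Of the 7 neutrophil markers 4 were absent in Cy5 on many arrays (Mpo on 12, S100a8 on 14, Ngp on 22 and Camp on 23). Among the 12 lymphocyte markers Cd4 was absent in Cy5 on 12 arrays, Gzma on 11, Cd8a on 9, Cd79a on 8, and Cd3g and Ms4a1 on 7 each. Of the 9 endothelial and stellate markers 1 was absent in Cy5 on most arrays. Among hepatocyte markers Ahsg, Apoa1 and Cps1 were saturated in Cy5 on 22, 20 and 8 arrays, besides 4 on all 23. Ttr and Apob, with 0 saturated spots, had r = 0.51 and 0.33 with Psmb8, 0.05 and -0.02 with Psmb9 and 0.26 and 0.31 with Psmb10. The mean log2 ratio of the macrophage markers was 1.97 to 2.56 in the CB group, 1.96 to 3.05 in the DEP group and 2.09 to 2.59 in the filtered air group, none of these markers was absent on more than 2 arrays, and the single markers ran from 0.11 (Cd68) to 0.65 (Vsig4) with Psmb8, from 0.10 (Cd68) to 0.54 (Vsig4) with Psmb9 and from -0.06 (Cd68) to 0.75 (Vsig4) with Psmb10. The mean of the endothelial and stellate markers was -0.33 to 0.01 in the CB group, -0.24 to 0.12 in the DEP group and -0.18 to -0.10 in the filtered air group. Limma called 0 of these markers in any comparison. An unadjusted p under 0.05 was found for 1 endothelial or stellate marker after CB, with a higher mean, and for hepatocyte markers saturated in Cy5 on all 23 arrays (3 after CB and 4 after DEP), whose ratios do not measure the level in liver. It was found for 0 of the other lists. The part of these cells in the spread of the immunoproteasome was not tested. Some lists that mark no cell type had correlations near these. The mean of the 3 assembly chaperones of the base had r = 0.58, 0.41 and 0.61 with Psmb8, Psmb9 and Psmb10. That of the 9 proteasome partners had 0.51, 0.46 and 0.51, and that of the 7 standard inner ring subunits 0.50, 0.35 and 0.46. The means of the outer ring, the ATPases, the non-ATPase subunits and the activators had lower values, 0.04 to 0.34.

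The sign of a ratio against the reference RNA depended on the normalization. With loess 20 members had a mean ratio above the reference in the CB group, 20 in the DEP group and 24 in the filtered air group, whereas with the deposited ratios these were 7, 10 and 9. Psmb8 averaged 0.20, 0.10 and 0.28 by loess in the CB, DEP and filtered air groups, and -0.26, -0.29 and -0.14 in the deposited ratios. Psmb6 lay above the reference on both scales in all 3 groups (1.14, 1.16 and 1.29 by loess, and 1.09, 1.12 and 1.25 in the deposited ratios), and Psmb7 below it (-0.38, -0.28 and -0.37, and -0.71, -0.70 and -0.82).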

How the data were processed

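Liver RNA of 23 mice was measured with 1 array each. The authors scanned the arrays, quantified the spots and deposited the intensity of each channel on a linear scale, from which background had not been taken off. The deposited log2 ratios were normalized by the authors with a lowess curve in R 2.4.1 (submitters' processing notes), and spots below the trimmed mean plus 3 trimmed SD of a negative control probe were flagged absent.

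From the intensities, loess ratios within each array were computed over the 18688 features with a listed gene in limma 3.58.1 (R 4.3.3), with no filter on signal, and groups were compared with lmFit and eBayes. Correlations were computed in Python 3.11.15 with NumPy 2.4.6 and SciPy 1.17.1. The authors' Fs test was not run. Alternatives covered normalization, background, dim, absent, faint and saturated spots, rounds, array sets and days, weights and each mouse left out. The tests were checked on simulated data. Genes named are Psmb5 to Psmb10, Psme1, the 4 members with the smallest p per comparison and the 5 genes most like Psmb8 and Psmb9. Other genes were named by role or list after their values were seen. The members and lists were chosen with earlier results of these data known.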

Additional observations from a re-analysis of the deposited data

How the results depend on the processing

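The count of members called stayed at 0 in every comparison under the alternatives run, each mouse left out included, except that median centring of each array called 1 member, Psmc1, after CB (adjusted p = 0.0358 in limma, with 285 of all features called). Within the last round 50 features of all passed in CB minus air and 100 in CB minus DEP, with 1 CB mouse and 0 members among them. No paired analysis was possible because the numbers of the mice are unique and pair no samples across groups. Of 12 pairs of subunits, 6 passed by permutation tests, 3 with the deposited log2 ratios and 1 with the Cy5 signal alone. The cause was not tested.

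No fold change of a named gene passed except Psmc1 with median centring, and of 22 fold changes the direction turned in these. With the Cy5 signal alone Psmb8, Psmb10 and Psme1 were 0.36, 0.20 and 0.064 after CB, Psmb5, Psmb8, Psmb10 and Psmb4 were -0.18, 0.041, 0.26 and 0.47 after DEP, and the immunoproteasome minus its counterparts was 0.46 for CB minus air and 0.23 for DEP minus air. With median centring Psmb2 was -0.086 after CB, and Psmb5 and Psmb7 were -0.15 and -0.029 after DEP. Psmb7 after CB was 0.10 with the deposited ratios and 0.017 without faint spots. Psmb5 after DEP was -0.017 and Psmb7 after DEP -0.062 within the second round, and Psmb5 after DEP was -0.031 with array weights. Within the last round Psme1 after CB was 0.053, Psmb6 and Psmb8 after DEP were 0.30 and 0.00798, and Psmd4 and Psmd3 in CB minus DEP were 0.24 and 0.024. Psmb6 after DEP was 0.020 without absent spots and 0.020 without faint spots. As each mouse was left out, Psmb5 after DEP ran from -0.037 to 0.051, Psmb6 after DEP from -0.22 to 0.020 and Psmb7 after CB from -0.066 to 0.038. With the Cy5 signal alone r was -0.040 for Psmb8 with Psmb10, -0.20 for Psmb10 with Psme1, -0.41 for Psmb5 with Psmb6, -0.45 for Psmb5 with Psmb7, -0.15 for Psmb5 with Psmb8, -0.13 for Psmb6 with Psmb9, -0.14 for Psmb7 with Psmb10 and -0.019 for Psme1 with array brightness. With the deposited ratios r was -0.12 for Psmb6 with Psmb7 and -0.019 for Psmb9 with array brightness. The alternatives without absent or faint spots, the relations with array brightness and the Cy3 channel were chosen after seeing the data, and Psmd11 could not be fitted without absent spots. Signal over background limits Psmb11 and Psmd11, which were absent on 12 and 14 of the 23 arrays.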

Other observations

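Psmc2 and Psme4 each had a second, dimmer feature. For Psmc2 the log2 fold change of the dimmer feature (median Cy5 signal 363, against 9798 for the brighter one) was -0.07 after CB and -0.18 after DEP, and that of the brighter one -0.14 and -0.06. For Psme4 (170 against 10424) they were -0.12 and -0.05 for the dimmer and -0.04 and 0.08 for the brighter feature. None passed in limma (adjusted p from 0.925 to 0.997 for the dimmer features).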
